A study of Mus musculus with 2 samples.

Results

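The 50 genes described here act in mitosis and in the assembly of the mitotic spindle, and are a list of names that uses no measured value in its rule, although it was drawn up with earlier results of these data known. All 50 were among the 32285 genes of the deposited matrices. Their mRNA was followed in single cells of the dorsal telencephalon, the region of the embryonic forebrain that gives rise to the cortex, of mouse embryos without a mutation (wild type, WT) on embryonic day 16.5. The brain hemispheres were the labelled source, and cells had been freed with papain before droplet-based 3' RNA sequencing with unique molecular identifiers (UMIs), each of which marks 1 captured mRNA molecule. The WT samples, labelled replicates 1 and 6, belong to a series on loss of Dot1l driven by Emx1-Cre, whose knockout embryos were not used here. No treatment was given in the labels, so that no comparison between genotypes or treatments was possible and all comparisons were made between cell classes of the same 2 libraries.

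The matrices held 14136 barcodes and 74930397 UMIs in replicate 1, and 13046 barcodes and 68964234 UMIs in replicate 6. After filters on depth and mitochondrial UMIs and removal of likely doublets, 7219 and 7352 cells remained, and 59 barcode sequences occurred in both libraries. Cells were assigned to 13 classes by gates on raw UMIs of marker genes, none of which was a member. Cortical radial glia (RG, apical progenitors with Pax6 or Emx2 UMIs) numbered 216 and 231 cells, Eomes-positive intermediate progenitors (IP) 431 and 461, and progenitors gated by marker genes of the ganglionic eminences, Dlx1 or Dlx2 among them, 184 and 206. The last class lies outside the labelled dorsal region by its markers. Cells were called cycling when at least 8 of 32 S-phase genes or at least 4 of 20 G2/M genes, again without any member, had a UMI. These counts rise with the depth of a cell.

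Mitosis is prepared during G2, when cyclin B accumulates on the kinase Cdk1 and Cdc25 phosphatases remove the inhibitory phosphates from that kinase. Kinesins and their partners then build the spindle, kinetochores attach it to the centromeres, and the checkpoint proteins hold the anaphase-promoting complex (APC/C) back until every chromosome is attached. In the embryonic cortex radial glia divide at the ventricle, intermediate progenitors divide further from it, and their neuronal daughters leave the cell cycle.

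Many genes of this programme carry 2 short elements before their start, the CCAAT box bound by NF-Y and the cell cycle genes homology region (CHR, TTTGAA or TTCGAA) bound by the DREAM and MMB complexes, so the promoter letters of the members were read first. RefSeq promoters of build GRCm38.p6 (mm10) were found for 42 members, 45 promoters in all, each with 250 bases before and 50 after the start. Ccna2, Cdc25c, Aurkb, Spc24, Incenp, Kif20a, Tpx2 and Smc4 had no entry. TTTGAA or TTCGAA, searched on both strands, stood in 82.2% of member promoters and in 19.2% of 32851 promoters of all genes. TTTGAA alone stood in 77.8% against 17.9%, and TTCGAA, which reads the same on both strands, in 8.89% against 1.56%. CCAAT stood in 77.8% against 37.4%, at least 2 copies of it in 51.1% against 11.7%, and both elements together in 73.3% against 7.52%. For 6 members (Aurka, Cdc25b, Ect2, Kif2c, Ncapd2 and Pttg1) the tabulated start lay over 300 bases inside the annotated gene. These are letter matches within the windows, not bound sites. By the same annotation, 20 members overlap another gene and 9 a protein-coding one (Anln, Aurka, Ccna2, Cdc20, Kif18a, Kif20a, Ncapg, Nusap1 and Prc1), and their counts are uncertain to that extent.

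The last 150 bases before the start are shown for 8 members, with the letters of both elements, on either strand, in capitals. Cdk1 (chr10:69352913-69353062, minus strand), Cdc20 (chr4:118437344-118437493, minus strand), Kif11 (chr19:37376232-37376381, plus strand) and Top2a (chr11:99024190-99024339, minus strand) hold both elements, Top2a with 4 CCAAT and 3 CHR matches. Bub3 (chr7:131560220-131560369, plus strand), whose level followed the cell cycle least but for Pttg1 and is described further on, holds both as well. Ccnb1 (chr13:100786487-100786636, minus strand) and Plk1 (chr7:122159285-122159434, plus strand) hold CCAAT without TTTGAA or TTCGAA in this stretch, and Nusap1 (chr2:119618148-119618297, plus strand) holds neither. Plk1 holds TTTGAA after the start, at position 31, while Ccnb1 has no CHR match in its whole window.
Cdk1: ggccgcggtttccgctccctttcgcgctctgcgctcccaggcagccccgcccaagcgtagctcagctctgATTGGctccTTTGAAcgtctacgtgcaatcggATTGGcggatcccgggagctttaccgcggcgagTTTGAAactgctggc
Ccnb1: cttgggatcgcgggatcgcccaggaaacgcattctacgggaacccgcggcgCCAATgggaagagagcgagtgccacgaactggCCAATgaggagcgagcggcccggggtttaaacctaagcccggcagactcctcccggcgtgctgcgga
Cdc20: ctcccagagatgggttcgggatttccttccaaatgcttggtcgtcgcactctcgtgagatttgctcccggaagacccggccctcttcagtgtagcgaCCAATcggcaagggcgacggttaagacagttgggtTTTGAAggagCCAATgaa
Kif11: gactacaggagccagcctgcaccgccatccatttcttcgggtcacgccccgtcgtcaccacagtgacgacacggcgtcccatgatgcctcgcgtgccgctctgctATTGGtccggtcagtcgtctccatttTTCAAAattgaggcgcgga
Top2a: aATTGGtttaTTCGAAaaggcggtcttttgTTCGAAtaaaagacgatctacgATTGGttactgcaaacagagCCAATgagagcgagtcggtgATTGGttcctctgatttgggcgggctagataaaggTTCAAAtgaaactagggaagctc
Plk1: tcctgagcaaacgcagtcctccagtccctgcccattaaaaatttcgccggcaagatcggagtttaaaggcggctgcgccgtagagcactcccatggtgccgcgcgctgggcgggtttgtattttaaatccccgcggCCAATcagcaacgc
Bub3: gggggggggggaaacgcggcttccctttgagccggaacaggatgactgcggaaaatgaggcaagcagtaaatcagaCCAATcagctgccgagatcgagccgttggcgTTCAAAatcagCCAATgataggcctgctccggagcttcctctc
Nusap1: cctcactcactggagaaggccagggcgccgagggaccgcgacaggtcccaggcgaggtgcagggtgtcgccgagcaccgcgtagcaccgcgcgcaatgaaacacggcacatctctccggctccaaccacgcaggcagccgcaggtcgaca

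Mitotic mRNA was concentrated in the progenitor classes. Levels are given in CPM, UMI counts scaled to the same total in every class and library. The 50 members together made up 10866 and 10838 CPM in ganglionic eminence progenitors of replicates 1 and 6, 7501 and 6997 in RG, and 3677 and 2356 in IP. Oligodendrocyte precursors, with 17 cells in all, 13 and 4 by replicate, held 7995 and 5248. Their own markers stood at 3738 CPM in replicate 1 but at 611 in replicate 6, with RG markers at 10243, so the class name is uncertain there. Eminence progenitors were thus above RG in both libraries, and RG were above IP. The sum was 284 and 293 in excitatory neurons, 300 and 315 in Cajal-Retzius cells, 484 and 599 in erythroid cells, 1005 and 741 in striatal neurons, and 1413 and 1739 in interneurons. Among the other non-neural classes it lay at 1241 and 1654 in microglia, 1207 and 1346 in endothelial cells, 1627 and 1530 in mural cells, and 2876 and 1638 in fibroblasts. Eminence progenitors, 2.68% of the cells kept, held 24.1% of all member UMIs.

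**Figure D1:**
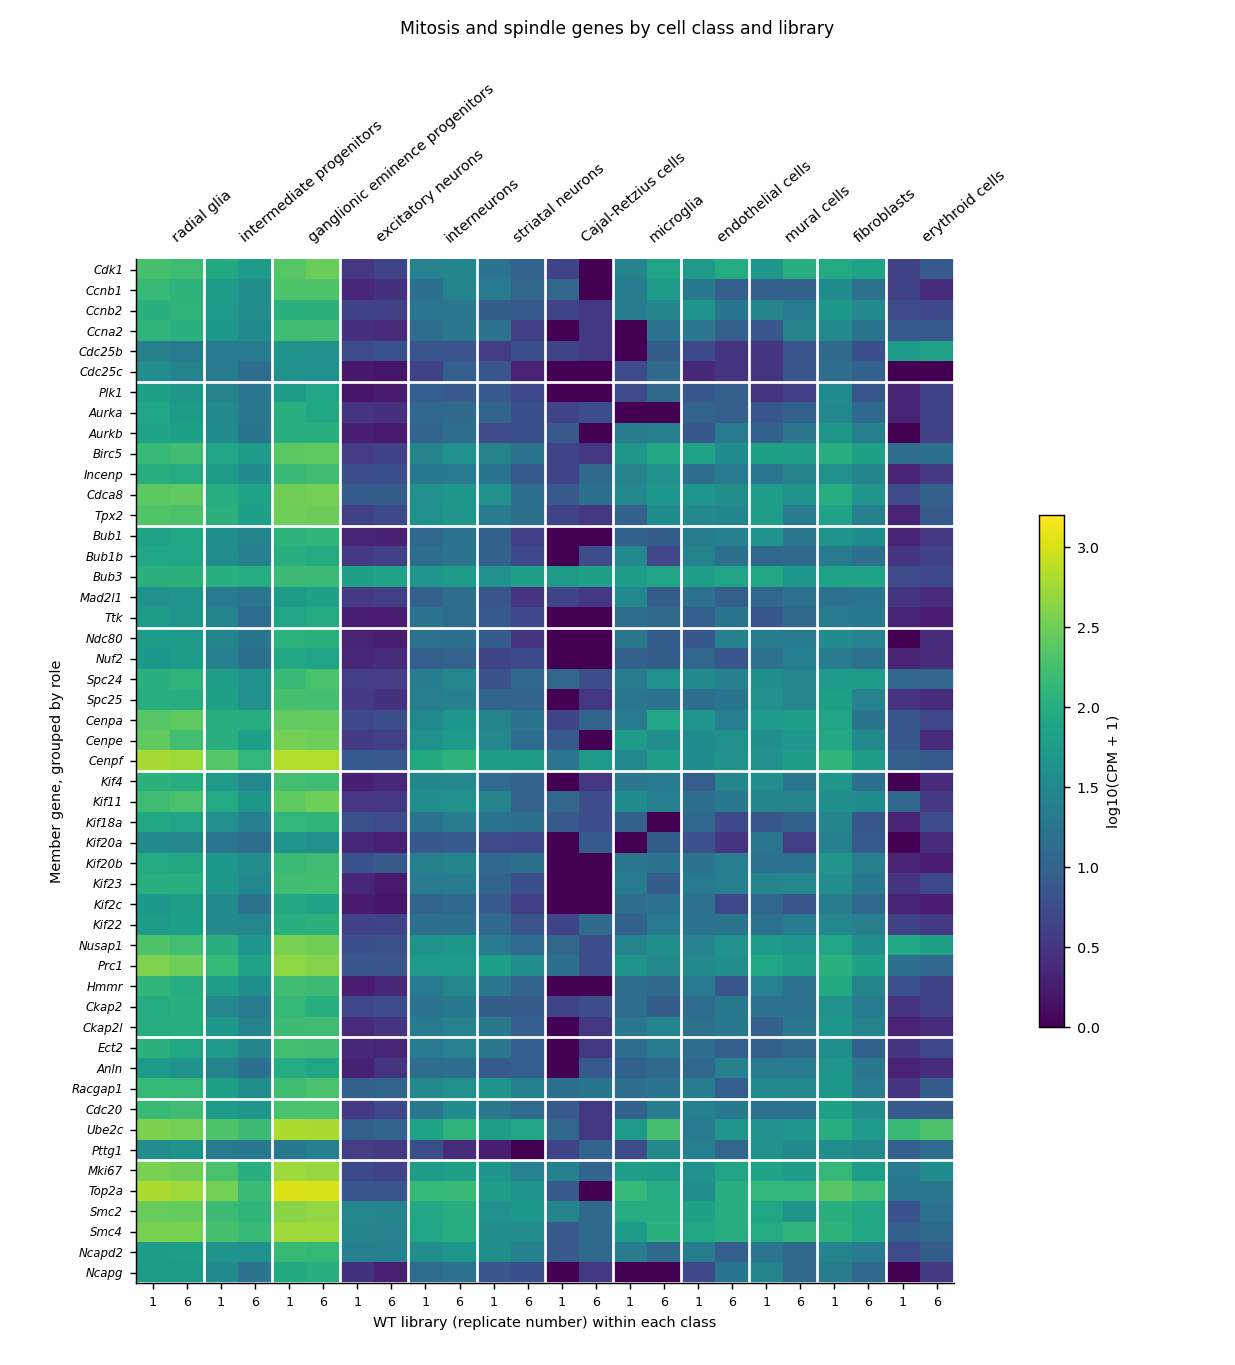
Heat map of the 50 members (rows, grouped by role) in 12 cell classes, with 1 column for each WT library (replicates 1 and 6) and colour for log10 of CPM plus 1. The 17 oligodendrocyte precursors are not drawn. The progenitor columns are brightest, while Bub3 is of similar colour in all classes but erythroid cells and Cdc25b, Ube2c and Nusap1 stand out in erythroid cells.

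By single genes, 47 of the 50 members had their highest mean level in eminence progenitors, with the oligodendrocyte precursors and cycling subsets left aside. Ccnb2, a B-type cyclin, and Pttg1, the securin that keeps separase inactive until anaphase, were highest in RG. Cdc25b, a phosphatase that activates Cdk1, was highest in erythroid cells at 53.9 and 69.2 CPM, against 43.7 and 41.7 in eminence progenitors. Erythroid cells also held 141 and 203 CPM of Ube2c, the conjugating enzyme of the APC/C, and 81.9 and 66.1 of Nusap1, a microtubule-binding spindle protein, although only 2 of 481 erythroid cells passed the cycling gate. Most other members were low there: Bub3 stood at 3.64% of its RG level. Erythroid marker genes, globins among them, made up 776201 and 812197 CPM of these sums, which lowers the CPM of every other gene.

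In the progenitor classes member UMIs came almost wholly from the cells called cycling. The gate reads other cell cycle genes in the same cells, so the shares that follow are a description. Of RG, 63.9% and 63.6% were cycling in replicates 1 and 6, of IP 26.7% and 21.7%, and of eminence progenitors 78.3% and 82.0%. These cells held 97.8% of member UMIs in RG, 91.3% in IP and 99.6% in eminence progenitors over both libraries, but 9.92% in excitatory neurons, 16.9% in erythroid cells and 18.6% in Cajal-Retzius cells. Striatal neurons, microglia and interneurons lay between, at 67.5%, 76.7% and 80.0%. In the remaining cells the member sum was 548 and 583 CPM in RG, 363 and 384 in IP, 401 and 338 in eminence progenitors, 369 and 352 in interneurons and 273 and 266 in excitatory neurons. A class sum therefore mixes the share of cells in division with the level in each of them, and fewer dividing cells and less mRNA per dividing cell cannot be told apart in sums over all cells of a class.

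Within progenitors the members were placed along the cycle by setting 656 cells past the G2/M gate against 157 cells past the S-phase gate alone and 916 past neither. This is a description, since the gates read other cell cycle genes in the same cells. The ratio of G2/M-gated to S-phase-only levels had a median of 4.85 on the log2 scale over the members, and 49 of 50 were higher past the G2/M gate in both libraries. The steepest was Ccnb1, cyclin B1, with 239 and 227 CPM past the G2/M gate and 1 UMI in all in the S-phase-only cells, a log2 ratio of 7.68 that depends on the 0.5 UMI added to both counts. Hmmr, a spindle-associated hyaluronan receptor, followed at 7.08, Bub1b of the checkpoint at 6.43, the microtubule-depolymerizing kinesin Kif2c at 6.41 and Ckap2l at 6.12. Single libraries differed by up to several log2 units for such genes, since the S-phase-only sums held few of their UMIs.

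Mitotic kinases and their Aurora partners had a median log2 ratio of 5.40, kinesins and spindle proteins 5.20, and the condensins, Top2a and Mki67 that make up the chromosome structure group 3.78. At the flat end stood the condensin core subunits Smc2 at 2.43 and Smc4 at 2.42, Cdc25b at 1.65, Bub3 at 1.31 and Pttg1 at 0.48. Smc4 was already at 113 and 108 CPM in S-phase-only cells and at 584 and 602 past the G2/M gate. Bub3, which binds Bub1 and Bub1b at unattached kinetochores, stood at 68.1 and 72.4 in S-phase-only cells, 178 and 173 past the G2/M gate and 67.1 and 67.3 past neither gate. Pttg1 was 25.9 and 15.2 in S-phase-only cells and 23.3 and 34.8 past the G2/M gate, so that its log2 ratio was -0.18 in replicate 1 and 1.14 in replicate 6. Whether Pttg1 differed between the gates was thus not resolved by the 2 libraries.

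**Figure D2:**
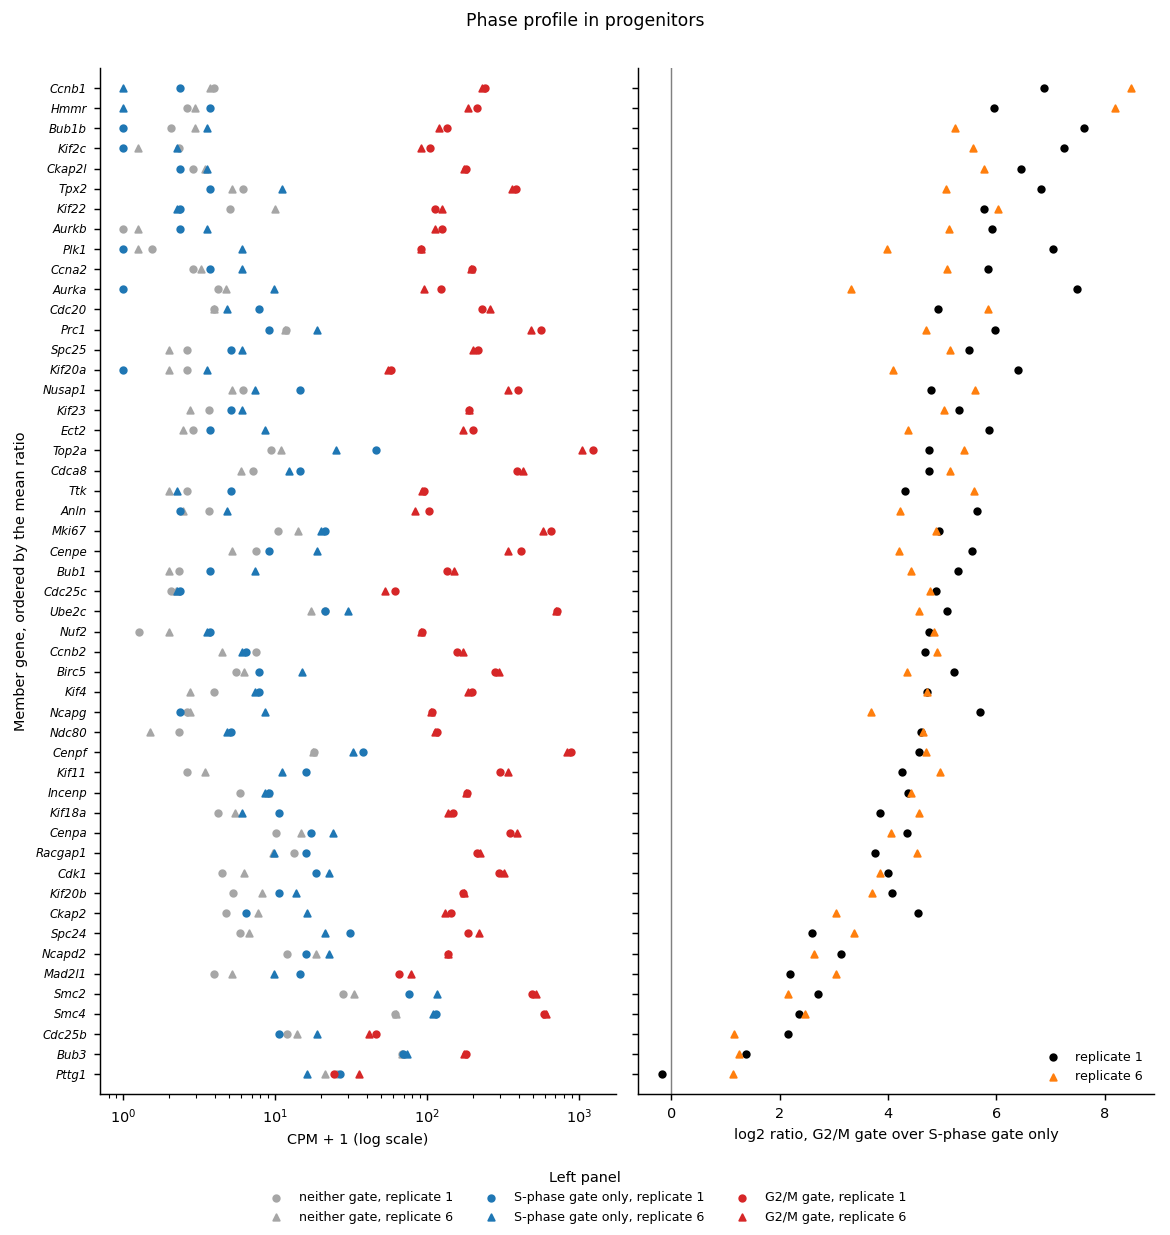
Left, level of each member (CPM plus 1, log axis) in progenitors past neither gate, past the S-phase gate only and past the G2/M gate, in WT replicates 1 (circles) and 6 (triangles). Right, the log2 ratio of G2/M-gated to S-phase-only cells in each library, which is above 0 in both for 49 of 50 members, Pttg1 being the exception.

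The first comparison asked whether IP and RG, the cortical progenitor types, held the same level of mitotic mRNA. Unlike RG, IP were gated without a limit on Neurod2 and Neurod6. They held 1457 and 1554 CPM of excitatory neuron markers, against 221 and 218 in RG, so the class reaches towards neurons. Over all cells of each class, 48 of 50 members were lower in IP and 0 were higher in edgeR's quasi-likelihood test on sums per library, with Benjamini-Hochberg adjustment over all genes. Of all 12411 genes tested, 22.2% were lower and 20.1% higher. At an unadjusted p under 0.05 the member counts were also 48 and 0, and DESeq2 called 43 lower and 0 higher. Both classes came from the same 2 libraries, which the labels do not tie to litters, so that the p-values measure the spread between these 2 samples. The median log2 difference (IP minus RG) was -1.18 over the members and 0.003 over all genes tested. The members fell in every role group: all 7 kinases and Aurora partners, all 7 kinetochore and centromere genes, all 13 kinesins and spindle proteins, all 6 chromosome structure genes, 5 of 6 cyclin, Cdk1 and Cdc25 genes and 4 of 5 checkpoint genes.

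Ckap2, a spindle protein that stabilizes microtubules, moved most, with 29.1 and 20.4 CPM in IP against a mean of 97.2 ± 3.90 (SD, n = 2) in RG (log2 difference -1.89 ± 0.17, SE, adjusted p = 2.2e-05). Prc1, which bundles the microtubules of the central spindle, was next, at 139 and 70.9 against 375 and 311 (-1.63, adjusted p = 0.00076), although its annotated span overlaps the gene Rccd1. Cenpf, a protein of the outer kinetochore, stood at 228 and 129 against 602 and 558 (-1.61, adjusted p = 0.00036). In all 3 genes the IP values lay below both RG values. Top2a, the topoisomerase that untangles sister chromatids, was at 336 and 150 in IP and at 639 and 531 in RG (-1.18, adjusted p = 0.011). Mki67, which coats mitotic chromosomes, was at 189 and 103 against 361 and 322 (-1.14, adjusted p = 0.0034). The cyclin-dependent kinase Cdk1 was at 85.8 and 54.8 against 183 and 161 (-1.21, adjusted p = 0.00075), and its partner Ccnb1 at 56.7 and 38.4 against 145 and 117 (-1.38, adjusted p = 0.00031).

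Plk1, a kinase of mitotic entry, fell by 1.33 on the log2 scale, Aurkb, the kinase of the chromosomal passenger complex, by 1.28, the APC/C activator Cdc20 by 1.49, the spindle-pole-separating kinesin Kif11 by 1.26 and Smc4 by 1.05. The smallest called differences were those of the condensin I subunit Ncapd2 (-0.38, adjusted p = 0.045, and 0.41 in DESeq2), of Cdc25c (-0.79, adjusted p = 0.037) and of the Ndc80-complex subunit Spc25 (-0.81, adjusted p = 0.012). Bub3 was at 106 and 95.3 in IP and 114 and 113 in RG (-0.09 ± 0.12, SE, adjusted p = 0.58), and Cdc25b at 20.6 and 19.7 against 23.9 and 20.6 (-0.06, adjusted p = 0.85).

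Among cells past the cycling gate most of this difference was no longer detected. Both classes were selected there by other cell cycle genes, and the part of this selection in their member levels was not tested. Of the 50 members, 1 was lower in cycling IP and 0 were higher, where 12.4% of all genes tested were lower and 10.0% higher, and the median log2 difference was -0.05. An unadjusted p under 0.05 was reached by 4 higher and 4 lower, and DESeq2 called 0 higher and 1 lower. The one was Ckap2, at 77.4 and 63.3 CPM in cycling IP and 127 and 138 in cycling RG (-0.86 ± 0.18, SE, adjusted p = 0.0025). Top2a stood at 974 and 570.0 against 863 and 742 (-0.01 ± 0.21, adjusted p = 0.98), so that its IP values lay on either side of the RG values, and Mki67 at 538 and 377 against 484 and 445 (0.02 ± 0.18, adjusted p = 0.96). In replicate 1 cycling IP held 10080 member CPM and cycling RG 9986, and in replicate 6 they held 8128 and 9692. Cdc25b was at 37.7 and 40.05 in cycling IP and 28.4 and 24.0 in cycling RG (0.60 ± 0.24, adjusted p = 0.088).

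The library served as a block in a second fit, since both classes came from the same 2 libraries. It called 4 members higher in cycling IP (Spc25 at 0.40, Ncapd2 at 0.43, Bub3 at 0.34 and Ube2c at 0.27) and 4 lower (Ckap2 at -0.86, Prc1 at -0.54, Cenpf at -0.44 and Cdca8 at -0.29). A stricter gate for the classes left Ckap2 lower (-0.71) and called Cdc25b (0.75), Spc25 (0.56) and Ncapd2 (0.52) higher. The share of all genes called was not computed for the block or the stricter gate, so these counts have no background beside them. Restricting both classes to cells past the G2/M gate, a setting chosen after seeing the data, again left Ckap2 alone, at 97.7 and 82.7 against 154 and 165 (-0.77, adjusted p = 0.0057), with 11.1% of all genes lower and 8.60% higher there. In cells past neither gate, 23 members had enough UMIs to be tested between IP and RG, of which 7 were lower and 1 was higher, against 17.9% and 15.7% of all genes. Cenpf was at 8.71 and 8.59 in these IP and 49.96 and 57.1 in RG (-2.56, adjusted p = 6.4e-06), and Pttg1 fell by 1.25. Kif4 fell by 3.06, from 11 UMIs in RG (12.95 and 6.17 CPM), and was tested only through RG, where it is high. Ncapd2 was the one higher, at 11.1 and 20.7 against 5.55 and 4.63 (1.72, adjusted p = 0.035). It rests on 3 UMIs in each RG library and 32 and 65 in IP, so that it was tested only through the class where it is high.

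Eminence progenitors were compared with RG in the same way; all comparisons with RG share the same RG sums. Over all cells, 40 of 50 members were higher in eminence progenitors and 1 was lower, where 17.0% of all genes tested were higher and 17.9% lower. The median log2 difference (eminence minus RG) was 0.64 over the members and 0.002 over all genes. All 6 chromosome structure genes, all 3 cytokinesis genes, 11 of 13 kinesins and spindle proteins, 6 of 7 kinases and Aurora partners and 5 of 7 kinetochore genes rose.

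Ncapd2 led, with 140 and 136 CPM against 57.0 and 60.7 in RG (1.27 ± 0.14, SE, adjusted p = 3.8e-05). Ndc80, the kinetochore subunit that grips the microtubule, followed at 115 and 111 against 55.0 and 52.1 (1.11, adjusted p = 0.00013), and Cdc25b at 43.7 and 41.7 against 23.9 and 20.6 (0.98, adjusted p = 0.0025). In these 3 genes both eminence values exceeded both RG values. Top2a reached 1086 and 1006 against 639 and 531 (0.88, adjusted p = 0.0007), Mki67 538 and 504 against 361 and 322 (0.65, adjusted p = 0.0035), and Cdk1 226 and 304 against 183 and 161 (0.66, adjusted p = 0.0064). Ccnb1 rose by 0.70, Kif11 by 0.72, Aurkb by 0.63, Smc4 by 0.61 and Bub3 by 0.48 on the log2 scale. The smallest called rises were 0.42 for Racgap1, which acts in cytokinesis, 0.43 for Cdca8 of the chromosomal passenger complex and 0.48 for the checkpoint protein Mad2l1.

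Pttg1 went the other way, with 18.9 and 24.1 in eminence progenitors and 36.5 and 42.5 in RG (-0.84 ± 0.21, SE, adjusted p = 0.0095). DESeq2 gave -0.83 for this gene with an adjusted p of 0.17. The 9 members not called were Ccnb2, Cdc20, Cdc25c, Plk1, Bub1b, Cenpa, Cenpf, Prc1 and Ckap2; Plk1 was at 58.4 and 75.0 against 65.3 and 48.9 (0.27, adjusted p = 0.3), Cdc20 at 189 and 191 against 146 and 163 (0.34, adjusted p = 0.055) and Cenpf at 695 and 675 against 602 and 558 (0.28, adjusted p = 0.12). With the library as a block 44 were higher, and the added genes were Bub1b, Cenpf, Prc1 and Cdc20. In cells past neither gate only 5 members had enough UMIs to be tested. Of these, 0 were higher, also by unadjusted p, where 12.9% of all genes were higher and 12.3% lower. Pttg1 was lower at 22.3 and 11.9 against 49.96 and 41.7 (-1.34, adjusted p = 0.048). It was tested only through RG, where it is high.

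Part of the rise was also seen between cycling cells. Cycling eminence progenitors had 23 members higher and 0 lower than cycling RG, where 12.9% of all genes tested were higher and 14.8% lower, and the median log2 difference was 0.42. By unadjusted p, 1 was lower, and DESeq2 called 0 lower. Ncapd2 was at 161 and 153 against 75.4 and 84.3 (1.02 ± 0.15, SE, adjusted p = 0.0005), Cdc25b at 50.5 and 45.1 against 28.4 and 24.0 (0.92, adjusted p = 0.0087), Ndc80 at 134 and 125 against 73.4 and 73.3 (0.87, adjusted p = 0.0015), and Top2a at 1265 and 1138 against 863 and 742 (0.63, adjusted p = 0.0088). The smallest called rises were those of Smc4 (0.42), Ccnb1 (0.45) and Kif11 (0.47). Plk1 (0.00, adjusted p = 0.99), Cenpf (0.05, adjusted p = 0.83) and Cdc20 (0.08, adjusted p = 0.72) differed by less than their SEs of 0.19, 0.14 and 0.14. Mki67 at 0.41 and Cdk1 at 0.42 missed the threshold with adjusted p = 0.055 and 0.078.

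The count in cycling eminence progenitors moved with the method. The block raised it to 33, with Cdk1, Mki67, Aurkb and Bub3 among those added and Pttg1 called lower (-0.71, adjusted p = 0.013). DESeq2 called 8 and a single fit over all classes 10. No share of all genes was computed for these fits. Where only cells past the G2/M gate were kept in both classes, a setting chosen after seeing the data, 9 were higher, against 10.8% of all genes higher and 13.4% lower: Ncapd2 (0.87), Cdc25b (0.86), Ndc80 (0.71), Nusap1 (0.52), Kif20b (0.51), Kif22 (0.49), Top2a (0.48), Spc25 (0.48) and Ube2c (0.47). The cycling cells of eminence progenitors were more often past the G2/M gate, 272 of 313, than those of RG, 225 of 285, or of IP, 159 of 215.

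**Figure D3:**
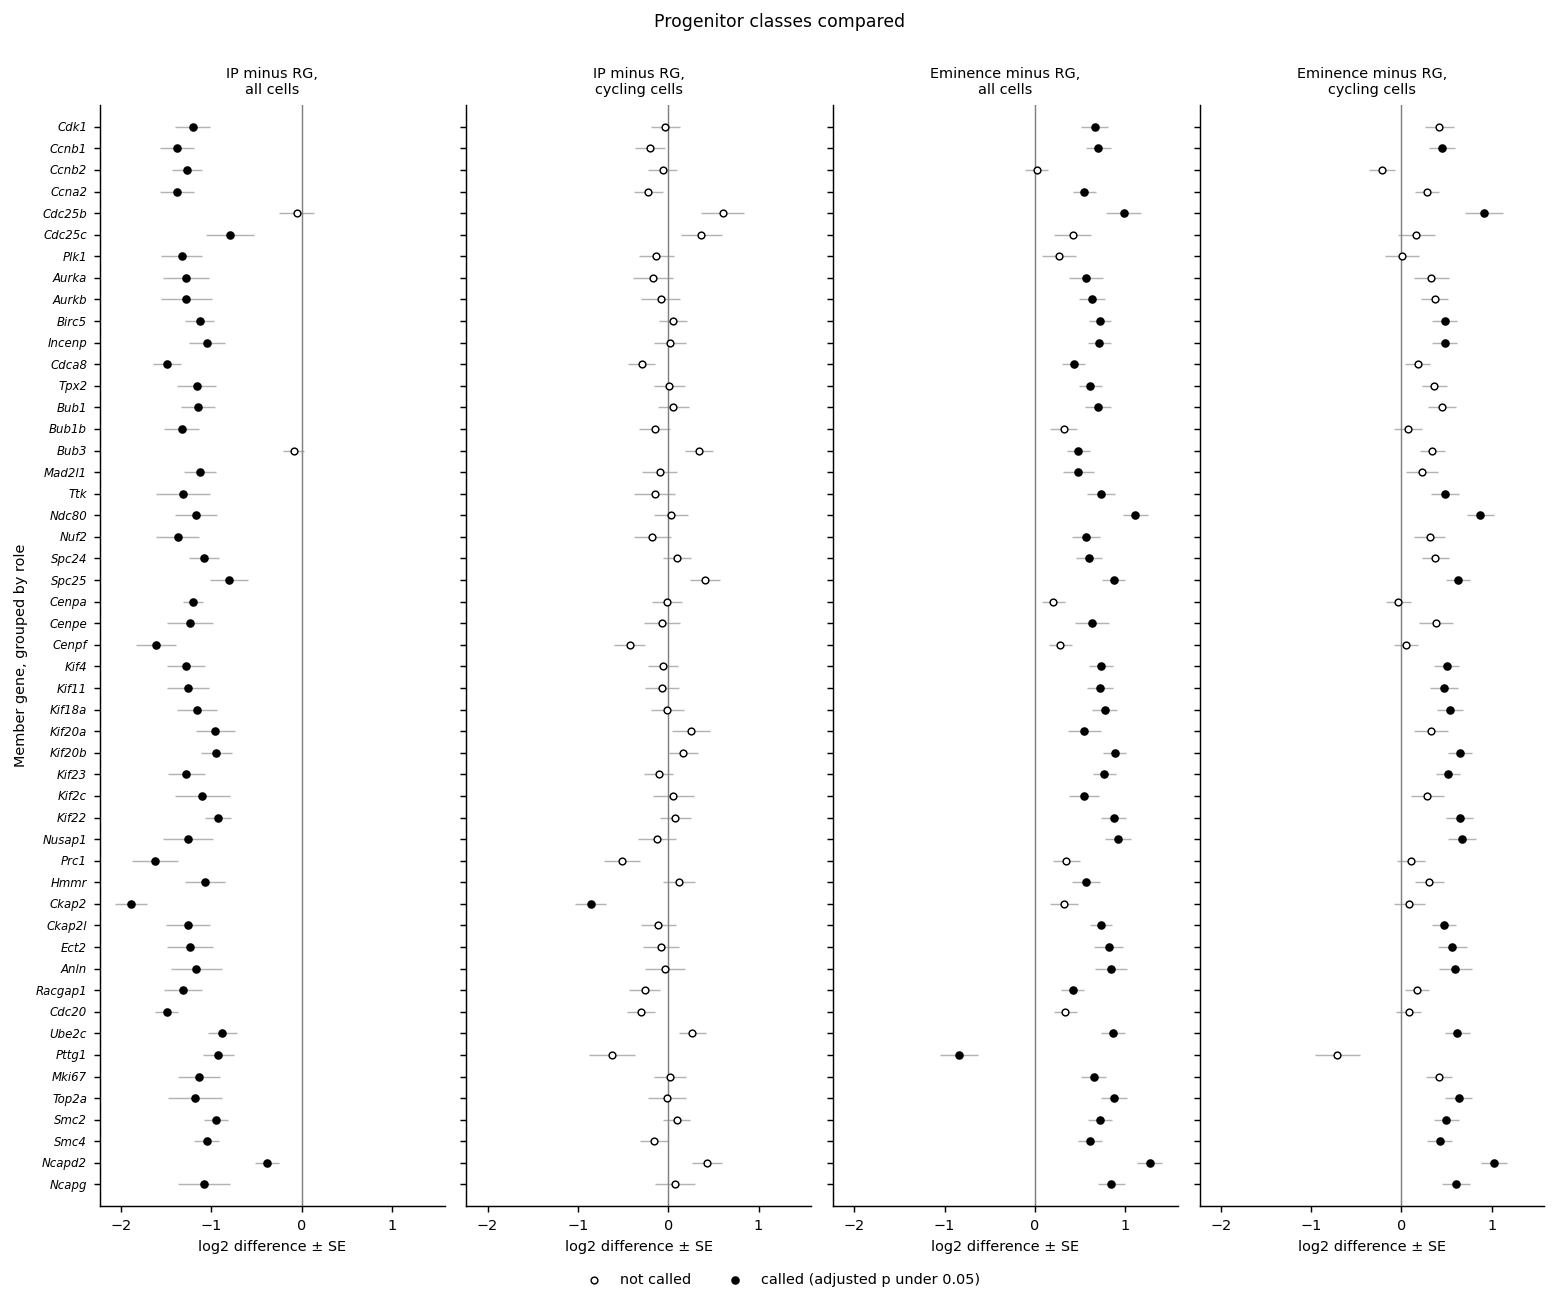
Log2 difference with its SE for each member, grouped by role, in IP and in eminence progenitors, each minus RG, over all cells and over cells past the cycling gate; filled points have an adjusted p under 0.05 (edgeR, 2 libraries per class). The IP points move from a median of -1.18 to about 0 between the first and second panel, Ckap2 excepted, while the eminence points stay mostly above 0 in the last panel.

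Each member was also read as a share of the member sum, which over all cells of a class includes the UMIs of its non-cycling cells. Top2a made up 8.05% ± 0.65 (SD, n = 2 libraries) of member UMIs in RG, 7.75% ± 1.97 in IP and 9.64% ± 0.50 in eminence progenitors. Cenpf made up 7.997% ± 0.031 in RG, 5.85% ± 0.51 in IP and 6.31% ± 0.12 in eminence progenitors, and so took a larger part in RG than in either other class in both libraries. Ncapd2 took 0.814% ± 0.077 in RG, 1.47% ± 0.38 in IP and 1.27% ± 0.02 in eminence progenitors. Pttg1 took 0.547% ± 0.085 in RG, 0.679% ± 0.165 in IP and 0.198% ± 0.034 in eminence progenitors. Among cycling cells alone its order was another, with 0.380% ± 0.088 in RG, 0.265% ± 0.063 in IP and 0.178% ± 0.046 in eminence progenitors. Cenpf took 7.96%, 6.21% and 6.31% of the member sum in these cycling cells and Ncapd2 0.812%, 1.16% and 1.26%.

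Cycling cells outside the neural lineage were few, 51 and 52 in replicates 1 and 6, and were summed. They comprised 38 fibroblasts, 24 endothelial cells, 21 mural cells, 18 microglia and 2 erythroid cells. Their member sum was 4997 and 3794 CPM, below the 9986 and 9692 of cycling RG. By class it was 7282 and 4057 in cycling fibroblasts, 5170.0 and 5697 in mural cells, 2684 and 2657 in endothelial cells and 2493 and 2804 in microglia, so the classes differed among themselves. In the test, 35 of 50 members were lower than in cycling RG and 0 were higher, where 16.5% of all genes tested were lower and 22.2% higher, and the median log2 difference was -0.94. By unadjusted p 42 were lower and 0 higher, and by DESeq2 25 and 0.

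Cenpf fell most, from 799 and 769 CPM in cycling RG to 186 and 131 (-2.16 ± 0.20, SE, adjusted p = 7.7e-06), then Ccnb1 from 196 and 165 to 61.6 and 40.9 (-1.66, adjusted p = 0.0001) and the kinesin Kif18a from 107 and 99.9 to 43.5 and 15.0 (-1.65, adjusted p = 0.0018). Kif11 fell by 1.52, Cdc20 by 1.21, Smc4 by 1.12, Plk1 by 1.09, Top2a by 1.01 and Mki67 by 0.95. All 6 chromosome structure genes and 10 of 13 kinesins and spindle proteins fell, but only 2 of 5 checkpoint genes. The smallest called falls were those of Ncapd2 (-0.72), the kinase Ttk (-0.73) and Nuf2 (-0.80). Cdk1 at 158 and 173 against 247 and 224 (-0.37, adjusted p = 0.089), Aurkb (-0.44, adjusted p = 0.1), Cdc25b (-0.82, adjusted p = 0.081) and Bub3 (-0.29, adjusted p = 0.19) did not pass the threshold. The block added Cdk1, Spc24, Spc25 and Hmmr. Of cells past the G2/M gate only, 34 were lower and 0 higher, against 14.9% and 20.4% of all genes, with a median of -0.87, so the difference stood also among 76 and 225 G2/M-gated cells.

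Excitatory neurons, with 1955 and 2227 cells, were set against RG to see which members were lost and which kept outside division. All 50 members were lower, with a median log2 difference of -5.38, where 29.4% of all genes tested were lower and 31.5% higher. Hmmr fell most, to 0.797 and 1.27 CPM from 127 and 94.98 (-6.52 ± 0.22, SE, adjusted p = 1.5e-08), followed by Kif23, a kinesin of the central spindle (-6.48), and the chromokinesin Kif4 (-6.38). Top2a was at 6.38 and 6.18 against 639 and 531 (-6.33), Mki67 at 4.20 and 3.59 against 361 and 322 (-6.25), Cenpf at 7.60 and 6.86 against 602 and 558 (-6.12), Kif11 at 2.23 and 2.27 against 159 and 189 (-6.06) and Cdk1 at 2.23 and 3.38 against 183 and 161 (-5.73). Plk1 fell by 6.25, Aurkb by 6.20, Ccnb1 by 6.15, Cdc20 by 5.43 and Smc4 by 3.57. Hmmr, Kif23, Kif4, Plk1 and Aurkb were near the floor in neurons and were tested only through RG, where they are high. The same holds for some other members among the 50.

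The members that fell least were Bub3, at 65.3 and 68.7 in neurons and 114 and 113 in RG (-0.55 ± 0.09, SE, adjusted p = 0.00057), Ncapd2, at 23.9 and 24.2 against 57.0 and 60.7 (-1.09, adjusted p = 1.9e-05), and Cdc25b, at 4.52 and 5.38 against 23.9 and 20.6 (-1.96, adjusted p = 2.9e-05). As a share of the RG level, neurons held 59.1% of Bub3, 40.9% of Ncapd2, 22.3% of Cdc25b, 10.0% of Smc2 and 7.29% of Smc4, against a median of 2.07% over the members. Bub3 was of like level in Cajal-Retzius cells (55.2 and 63.4) and striatal neurons (41.1 and 63.1), which are also postmitotic. It was also of like level in non-neural classes that hold cycling cells. These were microglia (56.8 and 73.4), endothelial cells (61.7 and 74.0), mural cells (78.9 and 46.8) and fibroblasts (71.8 and 70.1).

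Cycling cells were left out of both classes in a comparison added after seeing the data, which set 4085 neurons against 162 RG. Of 45 members with enough UMIs, 12 were lower and 2 were higher in neurons, where 19.7% of all genes tested were lower and 22.6% higher. Ncapd2 was higher here, with 23.8 and 24.1 CPM in neurons and 5.55 and 4.63, or 3 UMIs per library, in non-cycling RG (2.46 ± 0.35, SE, adjusted p = 0.00023), and was tested only through the neurons, where it is high. The small guide RNA gene Scarna10 lies inside Ncapd2 in the annotation, and its part in these counts was not tested. Bub3 turned as well, at 65.5 and 67.6 against 61.1 and 43.2 (0.59 ± 0.17, adjusted p = 0.015). Its neuronal values exceeded both RG values, by little in replicate 1. Pttg1 fell most, from 49.96 and 41.7 in non-cycling RG to 2.83 and 2.39 (-3.90, adjusted p = 2.2e-06), followed by Kif4 (-3.16), Cenpf (-3.04), Mki67 (-2.64), Cenpa (-2.47), Ccnb2 (-2.11), Spc24 (-2.06), Top2a (-1.81), Birc5 (-1.64), Smc4 (-1.40), Prc1 (-1.26) and Ube2c (-1.21). Kif4 and Birc5 rest on 11 UMIs each in non-cycling RG, and Kif4 was tested only through RG, where it is high. Pttg1 was thus among the members highest in non-cycling RG and, at 0.48, the one with the smallest phase ratio.

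**Figure D4:**
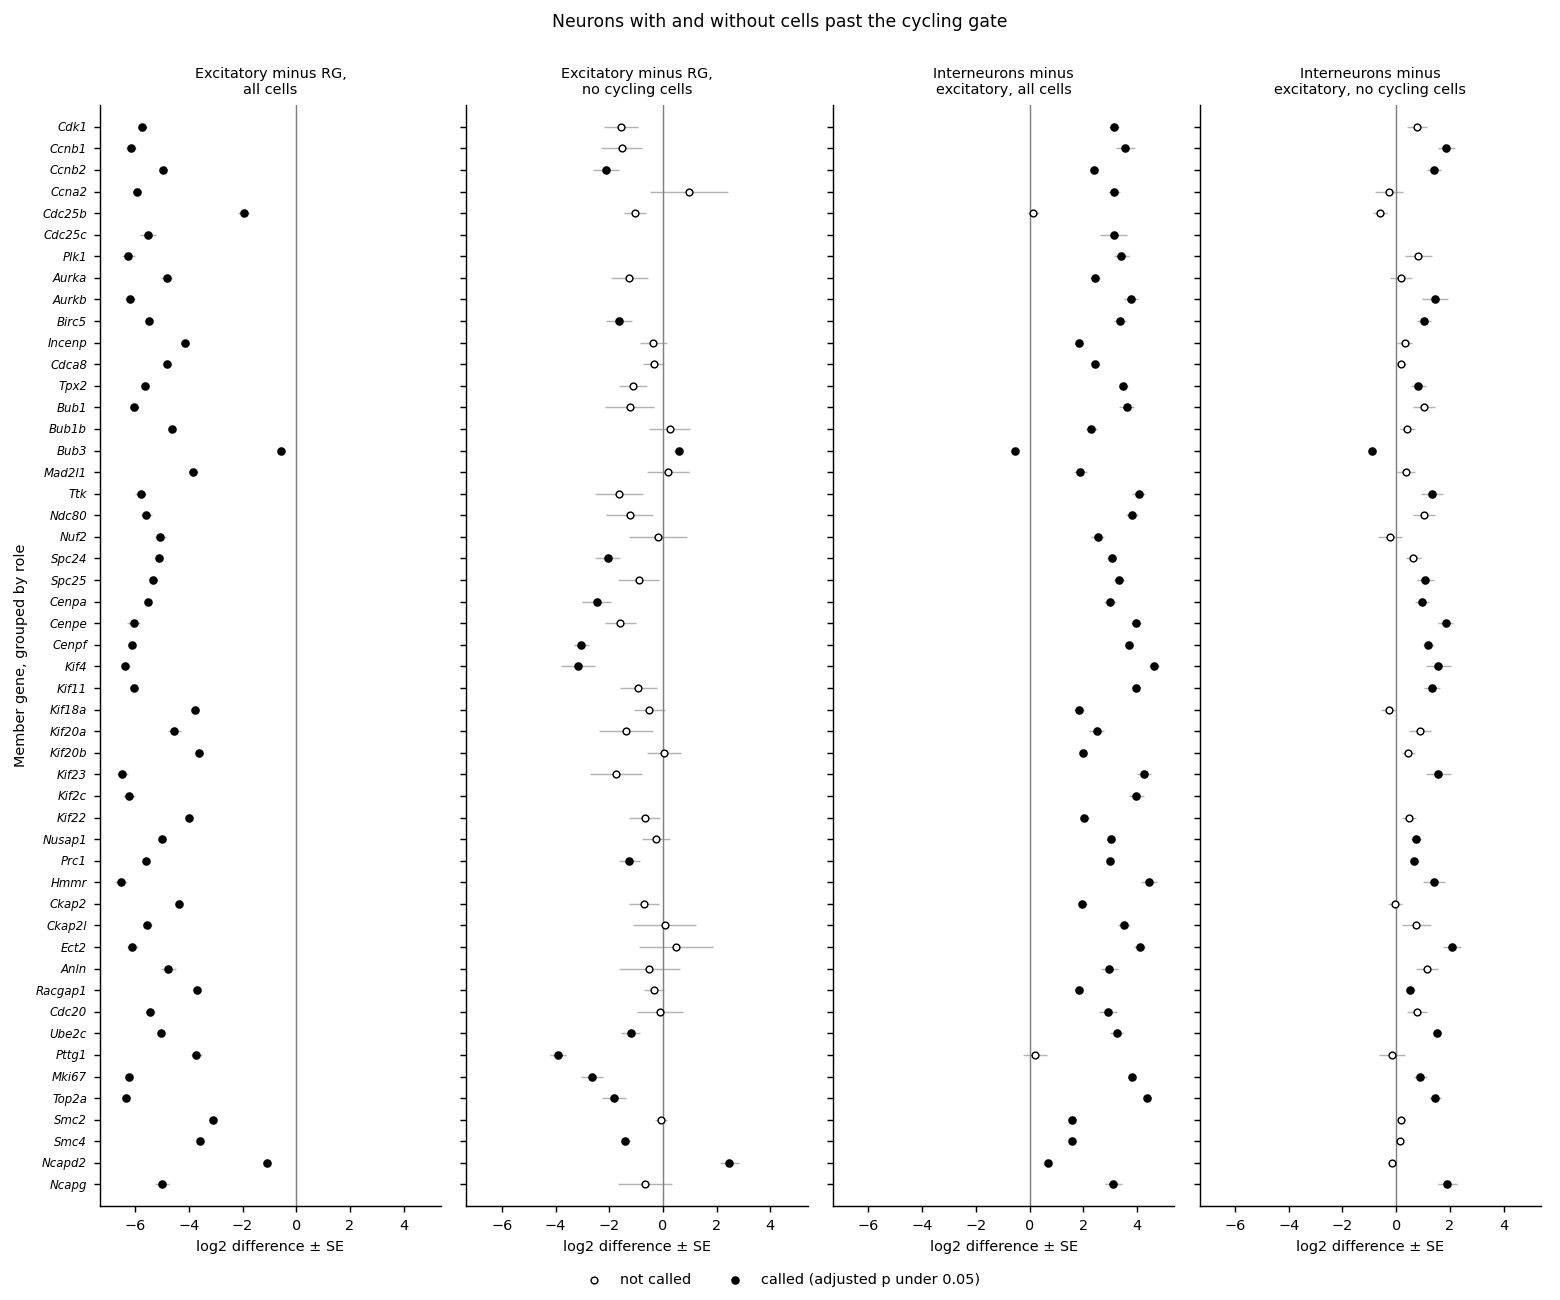
Log2 difference with its SE for each member, grouped by role, in excitatory neurons minus RG and in interneurons minus excitatory neurons, over all cells and without cells past the cycling gate; filled points have an adjusted p under 0.05 and members with too few UMIs have no point. Without cycling cells Ncapd2 and Bub3 lie above 0 in the second panel, and in the last panel 22 members lie above 0 as called and Bub3 below.

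Interneurons, with 1280 and 1249 cells gated by genes such as Gad1, Gad2 and Lhx6, had 47 of 50 members higher than excitatory neurons and 1 lower, where 23.8% of all genes tested were higher and 23.6% lower, with a median log2 difference of 3.09. Kif4 led at 28.8 and 29.5 CPM against 0.904 and 1.27 (4.63 ± 0.18, SE, adjusted p = 2.1e-06), then Hmmr (4.45) and Top2a, at 139 and 142 against 6.38 and 6.18 (4.38). Mki67 (3.83), Kif11 (3.96), Aurkb (3.78), Cenpf (3.71), Ccnb1 (3.56), Plk1 (3.42), Cdk1 (3.15) and Cdc20 (2.92) were of like order, and the smallest called were Ncapd2 (0.68), Smc2 (1.57) and Smc4 (1.60). Hmmr, Aurkb and Plk1 were near the floor in excitatory neurons and were tested only through interneurons, where they are high. Bub3 was lower, at 45.4 and 54.0 against 65.3 and 68.7 (-0.54 ± 0.09, adjusted p = 0.0023), and Cdc25b (0.14, adjusted p = 0.59) and Pttg1 (0.22) were not called.

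The gate for interneurons let in 105 and 117 cycling cells, 8.20% and 9.37%, which held 80.0% of the member UMIs of the class. In these cells the member sum was 8905 and 10281 CPM. They had lower levels of genes of maturing interneurons than the rest of the class: Erbb4 stood at 1728 and 2126 against 8454 and 9886, and Lhx6 at 28.2 and 35.2 against 117 and 129. The progenitor-expressed Dlx2 was higher, at 205 and 248 against 109 and 122, and Gad2 was at 474 and 535 against 619 and 668. The class defined by these markers thus contained dividing cells, and values without the cells past the gate are given next.

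Without cycling cells in either class, a setting chosen after seeing the data, 22 of 48 members tested were higher in interneurons and 1 was lower, where 22.5% of all genes were higher and 22.9% lower, and the median log2 difference was 0.80. The cycling gate is harder to pass in shallow cells. Median depth was 3742.5 and 3591 UMIs in interneurons of replicates 1 and 6, against 8907 and 7887 in excitatory neurons. How many dividing interneurons stayed below the gate was not tested. Ect2, an exchange factor of cytokinesis, was at 4.52 and 4.62 against 1.17 and 0.870 (2.07, adjusted p = 0.0011), Ncapg at 5.51 and 5.28 against 1.78 and 0.924 (1.91), Ccnb1 at 3.54 and 4.18 against 0.9993 and 0.979 (1.87) and Top2a at 17.3 and 12.1 against 5.72 and 4.51 (1.45). All of these levels are low. Racgap1 had the smallest called rise (0.53). Bub3 was lower by a wider margin, at 37.0 and 38.1 against 65.5 and 67.6 (-0.91 ± 0.08, adjusted p = 3.1e-05), and Ncapd2 no longer differed beyond its error (-0.17, adjusted p = 0.25).

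Per cell, member mRNA was counted after each cell had been thinned to 2000 UMIs, since the median depth ran from 3439 UMIs in erythroid cells to 13150 in fibroblasts. At least 5 members had a UMI in 65.2% of 388 eminence progenitors (95% Wilson interval 60.3% to 69.8%), 42.4% of 443 RG (37.9% to 47.1%) and 14.5% of 891 IP (12.3% to 16.9%). The intervals cover counting error only, over cells pooled from both libraries, and do not measure the spread between libraries. Before thinning the shares were 76.4%, 63.8% and 30.5%. Only 0.289% of 4156 excitatory neurons reached 5 members, 0.665% of 1954 non-cycling interneurons and 0 of 70 Cajal-Retzius cells. A count of 0 allows a share of up to 4.29% by the limit of 3 counts, and the Wilson interval reaches 5.20%. At least 1 member had a UMI in 41.6% of excitatory neurons and 37.1% of Cajal-Retzius cells, so that a single member UMI does not mark a dividing cell. In the cycling interneurons 70.2% of 215 cells reached 5 members.

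By gene, Top2a had a UMI in 56.2% of thinned eminence progenitors, 31.4% of RG and 11.1% of IP, against 1.30% of excitatory neurons and 1.43% of Cajal-Retzius cells, classes of similar depth that should lack it and in which these shares are read as background. Bub3 was found in 18.5% of RG, 15.4% of IP, 19.1% of eminence progenitors, 11.9% of excitatory neurons and 14.3% of Cajal-Retzius cells, but in 0.769% of erythroid cells. The share in erythroid cells, which came from the same suspensions, lay well below that in neurons. Most UMIs of erythroid cells were of erythroid marker genes, globins among them, so that thinning left few UMIs there for any other gene. The shares of these 2 classes are therefore not on the same footing, and the part of background in the neuronal share of Bub3 was not tested.

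**Figure D5:**
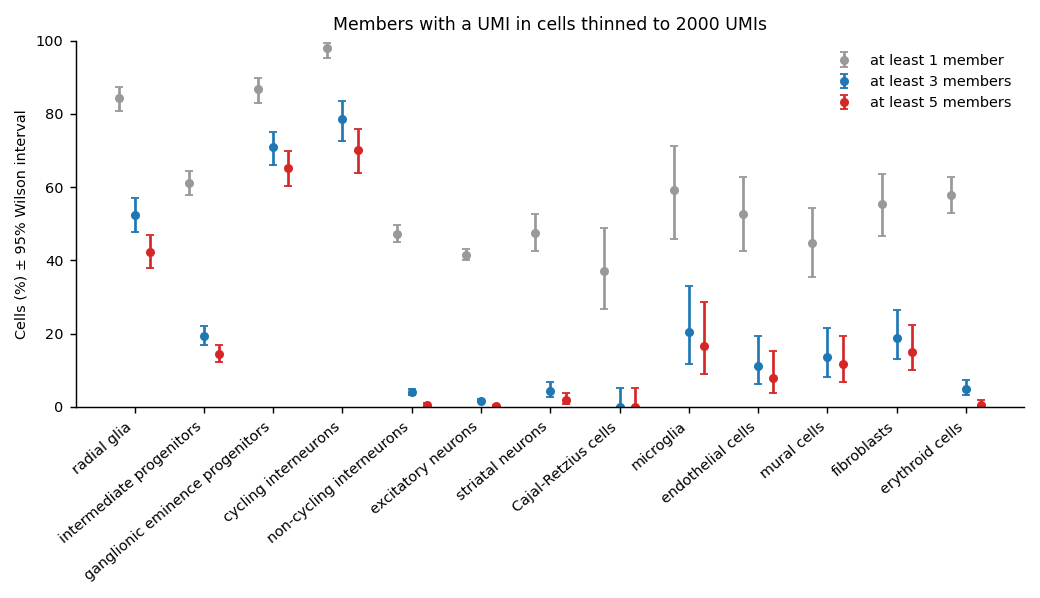
Share of cells (percent, with 95% Wilson interval) that had a UMI of at least 1, 3 or 5 members after thinning each cell to 2000 UMIs, in 13 classes or subsets over both libraries. At 5 members, the share is 65.2% in eminence progenitors, 42.4% in RG and 14.5% in IP, and excitatory neurons and Cajal-Retzius cells lie at or near 0.

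Genes of the same process outside the 50 were read as fixed lists. Of 47 other mitosis genes, 37 were lower and 0 higher in IP than in RG, 33 higher and 0 lower in eminence progenitors, 44 lower in excitatory neurons and 42 higher in interneurons than in excitatory neurons. Of all genes tested, 22.2% were lower in IP and 17.0% higher in eminence progenitors. In excitatory neurons 29.4% were lower and 31.5% higher, and 23.8% were higher in interneurons. Among cycling cells 1 was higher (Fbxo5, an inhibitor of the APC/C, at 0.66) and 1 lower (Cenpq at -0.80) in IP, 22 were higher in eminence progenitors, and 12 of 46 tested were lower in non-neural cells. There, 10.0% of all genes were higher and 12.4% lower in IP, 12.9% higher in eminence progenitors and 16.5% lower in non-neural cells. Fbxo5 (1.45), Mybl2 (1.39) and Foxm1 (1.35), the latter both transcription factors of late cell cycle genes, led in eminence progenitors, and Depdc1a and Troap (-1.67 both) in IP. Of 14 APC/C subunits, which are needed outside mitosis too, 1 was lower in IP, 2 were higher in eminence progenitors, and 2 were higher and 5 lower in excitatory neurons. Of 9 cohesin genes, 2 were lower in IP, 5 higher in eminence progenitors and 8 lower in excitatory neurons, with a median log2 difference of -0.48 in the last. The APC/C counts and the cohesin count in IP lay near or below the shares of all genes given above.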

How the data were processed

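The 2 wild-type 10x Genomics 3' v3.1 libraries were the data used. The authors aligned and counted reads with Cell Ranger 7.0.0 on mm10, and what they deposited are integer UMI counts for each gene in each barcode, not normalized. Only barcodes called as cells were present, since the lowest total was 500 UMIs. Whether intronic reads were counted is not given in the sources used here. Barcodes were retained at 1500 to 60000 UMIs if less than 10% of these were mitochondrial (8139 and 8209). Doublets were scored in each library against 2 simulated doublets per cell (2000 variable genes, 30 principal components), and the highest-scoring 920 and 857 cells, at a rate of 0.8% per 1000 called cells, were removed. Classes were gated on raw UMIs of fixed markers, and cells that passed several gates (168) or none (4612) were left out. RG needed 6 of 15 RG markers, no Eomes, Dlx1, Dlx2 or Gsx2 UMI and at most 1 Neurod2 or Neurod6 UMI. IP needed Eomes and 4 of 10 IP markers, and excitatory neurons 2 Neurod2 or Neurod6 UMIs and 5 of 12 markers. Part of the gate for eminence progenitors is not reported here.

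UMIs were summed per library and class and tested with edgeR 4.0.16 (R 4.3.3; TMM, filterByExpr, glmQLFit and glmQLFTest, two-sided, 2 sums per class, Benjamini-Hochberg, threshold 0.05). Log2 differences are edgeR estimates; levels are CPM, counts scaled to the class sum. DESeq2 1.42.0 was an alternative. The share of all genes called was computed for the main fits and for those without cycling cells or in G2/M-gated cells only. For the other settings, among them DESeq2 and the block, member counts stand without it. Same-numbered sums come from the same library, and their deviations from the class means correlated at 0.135 to 0.30 over genes, so the library was also fitted as a block. In simulated counts with 200 changed genes, 37% to 88% of log2 changes of 1 and 91% to 99% of log2 changes of 2 were recovered, with 1 to 10 false calls. Members, gene lists and tests were chosen with earlier results of these data known. Named members were 12 fixed genes, the 3 largest and 3 smallest called differences, called members against the main direction, and the 5 highest and 5 lowest phase ratios; other members named by value were chosen after their values were seen. Python 3.11.15 with numpy 2.4.6, scipy 1.17.1, scikit-learn 1.9.0, pandas 2.3.3 and matplotlib 3.10.9 was used.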

Additional observations from a re-analysis of the deposited data

Results flagged for a closer look

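Member UMIs were also present in cells that entered no comparison. Cells that passed no class gate, 2393 and 2219 in replicates 1 and 6, held on average 1813.4 member CPM (1893 and 1733), or 23.4% of all member UMIs, above the 284 and 293 of excitatory neurons. Of these cells, 12.3% passed the cycling gate. The 80 and 88 cells that passed several gates held 2505.5 (2883 and 2128). Groups of 2 libraries are too small for a test of outlying samples.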

How the results depend on the processing

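Of the values recomputed under the alternatives, 7 changed direction, 6 of them without cycling cells and 1 without a replicate. Numbers of members called in the main direction ran from 40 to 48 in IP against RG (7 without cycling cells), from 27 to 44 in eminence progenitors against RG (0 without cycling cells), from 25 to 42 in cycling non-neural cells, and stayed at 50 in excitatory neurons (12 without cycling cells) and 47 in interneurons (22 without cycling cells). Cycling IP had 1 lower member, but 2 without the filter on low counts, 7 with doublets kept, 4 with the replicate block and 4 when IP were limited to at most 1 Neurod2 and Neurod6 UMI. None was higher, but 4 were with the block and 3 with the stricter gate (Cdc25b at 0.75, Spc25 at 0.56 and Ncapd2 at 0.52). Cycling eminence progenitors had 23 higher, but 8 with DESeq2, 14 without the filter on low counts, 10 in a single fit over all classes and 9 in G2/M-gated cells only, and with the block 33 higher and 1 lower. For most of these shifts the cause was not tested; settings without cycling cells hold fewer cells and test fewer members. Without cycling cells, Ncapd2 stood at 1.72 in IP and 2.46 in excitatory neurons, both against 3 UMIs in each library of non-cycling RG, and at -0.17 in interneurons against excitatory neurons, Bub3 at 0.59 in excitatory neurons, and Smc4 and the member median at -0.88 in eminence progenitors. The phase ratio of Pttg1 was -0.18 without replicate 6 and 1.14 without replicate 1.

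Leaving out replicate 1 or 6 left 1 sum per class and no spread, so these are values with no test: 47 and 47 members highest in eminence progenitors, and 49 to 50 with a positive phase ratio. The settings without cycling cells, in G2/M-gated cells only and with the Neurod limit were chosen after seeing the data. Except for the counts given, the replicate block changed calls only by adding 4 members each in eminence progenitors against RG and in cycling non-neural cells. Without TMM scaling the median of all genes moved from 0.06 to -0.14 in excitatory neurons, from 0.01 to -0.12 in cycling non-neural cells and from -0.02 to 0.08 in interneurons. In non-cycling progenitors 23 of 50 members had enough UMIs to be tested in IP against RG and 5 in eminence progenitors against RG.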
